A study of Sus scrofa with 24 samples.

Results

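The genes described here are those of the proteasome and the ubiquitin system in pig muscle. They are the genes whose array symbol starts with PSMA, PSMB, PSMC, PSMD, PSME, UBE2, UBE3, UBA, UBR, USP, FBX, CUL or RNF, without FBXO32, which is set apart because it belongs to the muscle atrophy programme. The platform annotation gave 205 such probe sets with exactly 1 symbol, standing for 134 of the 6765 named genes on the array, and each gene was represented by its probe set with the highest mean signal over all pigs. Of these, 128 passed the filter on low signal and were tested among 14399 probe sets. FBXL2, FBXL16, FBXO2, FBXO34, RNF207 and USP30 lay below the filter and have no test. A prefix is not a function: UBAC1 and UBAP2L carry the UBA prefix without being activating enzymes, and the RNF prefix groups RING finger proteins of unlike substrates.

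Total RNA came from longissimus dorsi, the main loin muscle, of 24 pigs of the cross Landrace × Large White × Duroc. The feed contained 3.0% of coconut oil, olive oil, soybean oil or beef tallow, with 3 barrows (castrated males) and 3 gilts (young females) per fat. All pigs received an added fat, so no group shows the muscle without one, and the barrows had been castrated, so a difference between the sexes includes that. The trial held 72 pigs in 24 pens, at a body weight of 71 kg and near 130 days old at allocation. Which pens the sampled animals came from is not stated in the labels. Titles number the pigs, and these numbers name them below. They are 13 to 24 for barrows and 1 to 12 for gilts, so sex cannot be told apart from anything that followed this numbering.

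Ubiquitin is a small protein that is joined to other proteins in a relay of an activating enzyme (E1), a conjugating enzyme (E2) and a ligase (E3), and that deubiquitinases take off again. Proteins that carry chains of ubiquitin are unfolded and cut in the 26S proteasome, which consists of the barrel-shaped 20S core and the 19S cap that recognises and feeds in the substrate. In skeletal muscle this system removes much of the worn or surplus contractile protein, and it is known for its activity in muscle wasting.

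Array medians lay between 139 and 174 signal units, and Pearson correlations of log2 signals between arrays between 0.859 and 0.966, with the lowest mean correlations in pigs 12, 11 and 16. All 9 measured markers of muscle fibres (among them CKM, MYH7 and TTN) passed the filter. Markers of other cells were measurable too: 7 of 7 adipocyte markers, 7 of 7 fibroblast and matrix markers, 6 of 6 endothelial markers and 6 of 9 leukocyte markers passed it, while PTPRC, the pan-leukocyte marker, CD4 and ITGAM lay below it.

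The signals of the proteasome subunits varied together from pig to pig. After the means of the 8 groups of fat and sex were removed, the median Pearson r over 24 pigs was 0.52 among the 14 measured subunits of the 20S core (7 alpha, 7 constitutive beta; 91 pairs) and 0.37 among the 17 tested genes of the 19S cap (136 pairs). Between core and cap it was 0.45 (238 pairs). The 17 genes counted with the cap include PSMD5 and PSMD10, which are assembly chaperones. Over all pairs of the 5356 named genes tested the median r was 0.003. It was 0.05 among 24 E2 enzymes, 0.01 among 16 F-box proteins, 0.01 among 15 USP genes and -0.005 among 26 RNF proteins. These values are a description: the genes of a pig share an array and a piece of muscle, and no test of the difference was made. Without pigs 12, 11 and 16 the core had a median r of 0.62 and the cap one of 0.40.

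**Figure D1:**
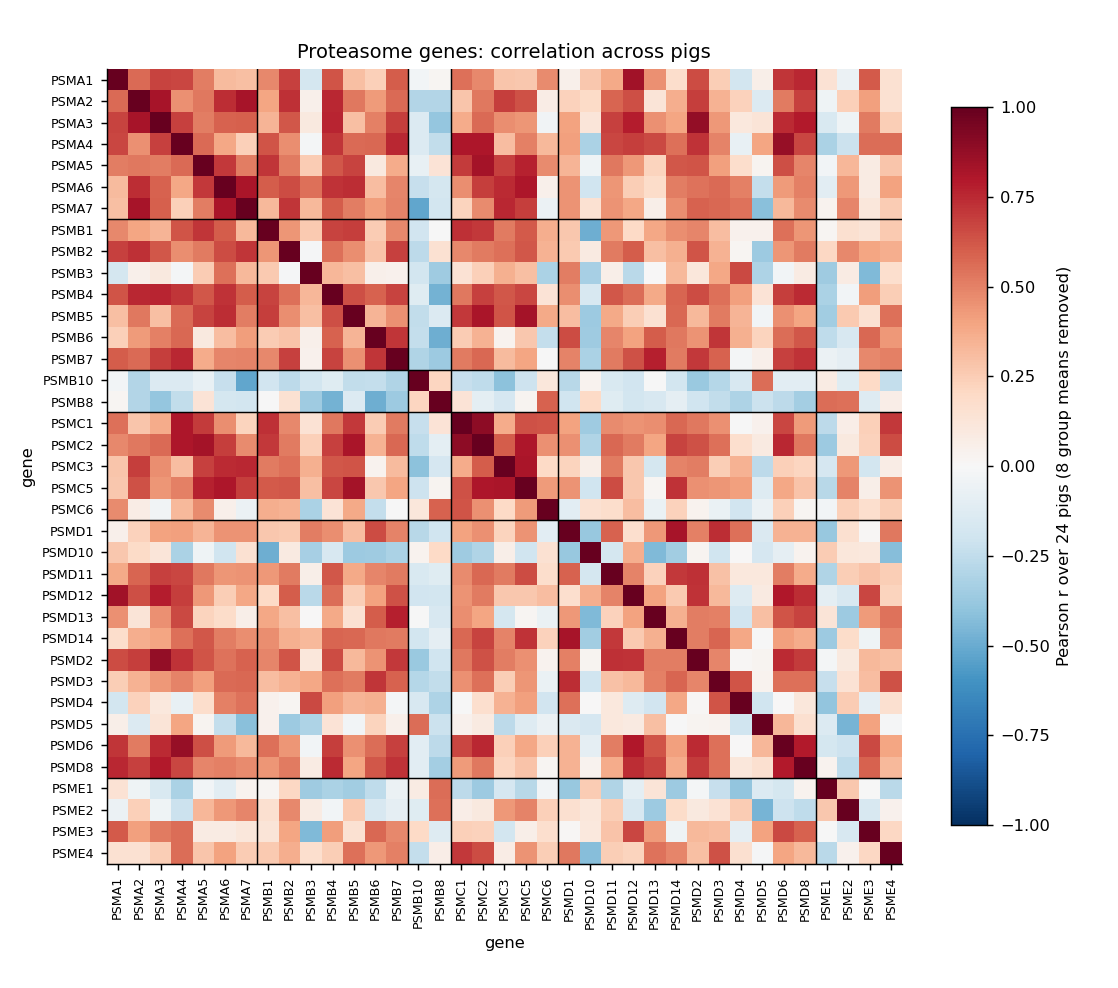
Pearson r over 24 pigs between 37 tested proteasome genes, after the means of the 8 groups of fat and sex were removed. Rows and columns run through the alpha ring, the constitutive beta ring, the inducible beta subunits, the 19S ATPases, the other 19S genes and the activators, with lines between them; red is positive and blue negative. The core and most of the cap form a red field, which PSMB3, PSMB8, PSMB10, PSMD4, PSMD5 and PSMD10 leave.

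The genes closest to their own class were PSMC5 and PSMC2, ATPases of the cap that unfold substrates, with a median r of 0.72 and 0.71 with the other 4 tested ATPases. PSMA2, PSMA6 and PSMA3 of the alpha ring, which gates the entry of the core, followed with 0.651, 0.648 and 0.635 over 6 others. The pair PSMC1 and PSMC2 reached 0.89. PSMD10 (gankyrin), an assembly chaperone of the cap that the mature proteasome does not hold, had a median r of -0.17 with the other 11 non-ATPase genes, and PSMD5, another assembly chaperone, one of 0.035. PSMD4, the ubiquitin receptor of the cap, had 0.01, and its signal lay between 1300 and 4090. PSMB3, a beta subunit without catalytic activity, had a median r of 0.16 with the rest of the constitutive beta ring.

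Averaged over the 31 core and cap genes, the deviation of a pig from the gene means was highest in pig 13 (0.26 on the log2 scale, soybean oil barrow) and pig 22 (0.25, olive oil barrow) and lowest in pig 12 (-0.30, olive oil gilt) and pig 19 (-0.225, soybean oil barrow). High and low pigs occurred within the same fat. By fat, the deviation was 0.052 ± 0.0757 with coconut oil, 0.007 ± 0.194 with olive oil, -0.014 ± 0.165 with soybean oil and -0.045 ± 0.125 with beef tallow (mean ± SD, n = 6). By sex it was 0.015 ± 0.151 in barrows and -0.015 ± 0.136 in gilts (n = 12). These groups overlapped throughout. The median SD of a member between pigs of a group was 0.245 on the log2 scale, against 0.32 over all tested probe sets. Members were chosen as the brightest probe set of a gene, and these medians were not matched for signal. UBE2C, the E2 enzyme that marks cyclins for destruction in mitosis, varied most among the tested members (SD 1.01, signals from 18.3 to 333) and UBE2H, an E2 that works with the CTLH ligase, least (SD 0.11, signals from 1270 to 1770).

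Between barrows and gilts, 6 of 128 members differed, 5 higher and 1 lower in barrows. Members of the USP prefix made up 3 of them (USP2, USP7 and USP18), RING-type ligases 2 (RNF130 and RNF7) and F-box proteins 1 (FBXW4). None of the 33 core and cap genes, PSMB8 and PSMB10 included, passed, with differences from -0.33 to 0.29 and a median of 0.02. Over all 14399 probe sets 4.83% passed at the same adjusted p under 0.05 (limma, Benjamini-Hochberg over all tested probe sets), 2.28% higher and 2.55% lower in barrows, so the share of members was close to that of all probe sets. The ranges of barrows and gilts overlapped for every member, and did not for 0.146% of all probe sets. At an unadjusted p under 0.05 there were 19 members with higher and 4 with lower signal in barrows, against 21.1% of all probe sets (9.83% higher, 11.3% lower).

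**Figure D2:**
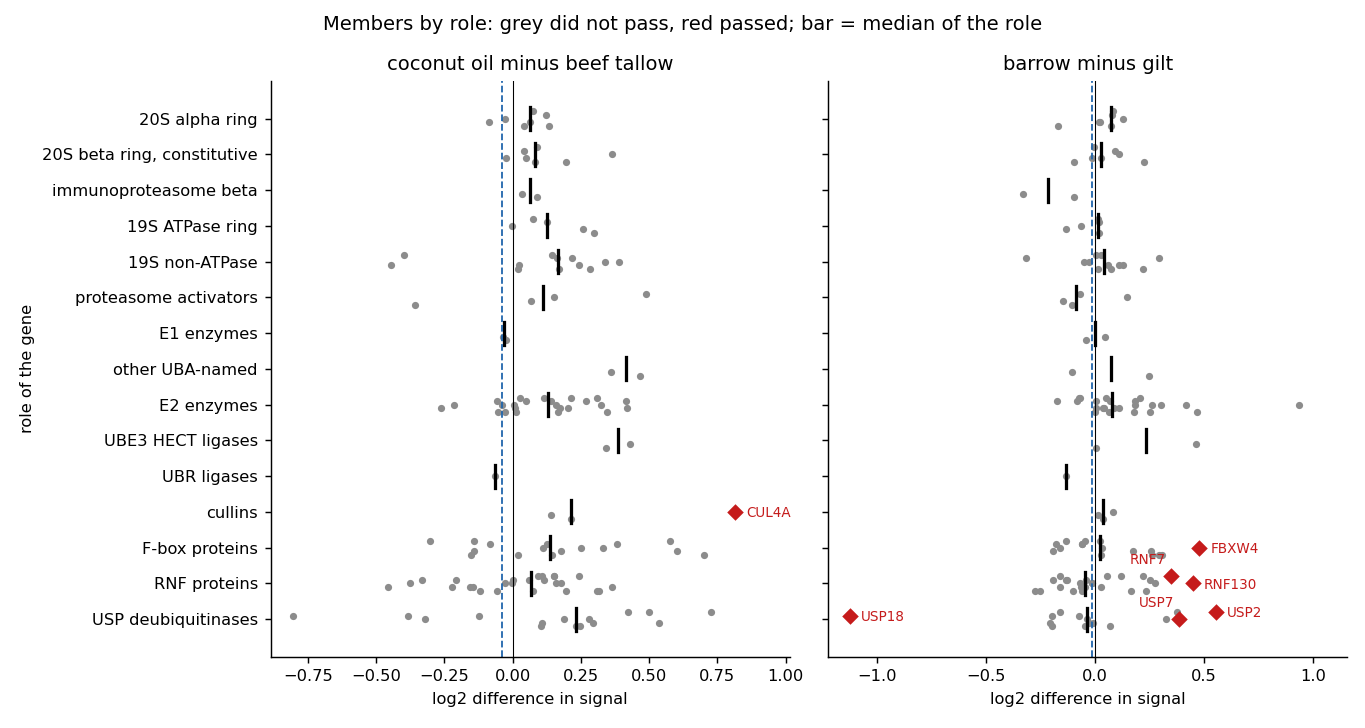
Log2 differences in signal of the 128 tested members, by role, for coconut oil minus beef tallow (left) and barrow minus gilt (right). Grey points did not pass and red diamonds passed at an adjusted p under 0.05; black bars mark the median of a role and the dashed blue line the median of all tested probe sets (-0.04 on the left, -0.02 on the right). Apart from CUL4A on the left and 6 genes on the right, every member is grey.

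RNF130, a membrane-bound RING ligase of endosomes, had a signal of 4700 to 7380 (median 5500) in barrows, against 3000 to 5540 (median 4170) in gilts. All 12 barrows lay above the mean of the gilts, although the ranges overlapped. The difference was 0.45 ± 0.11 on the log2 scale (SE, 12 pigs per sex), a 1.36-fold change with a limma adjusted p of 0.0218. Barrows were higher on all 4 fats, by 0.33 (olive oil) to 0.55 (soybean oil). A second probe set of RNF130 was higher in barrows by 0.34 ± 0.09 and also passed (adjusted p = 0.0319).

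RNF7, the RING partner of the cullin CUL5, had a signal of 3140 to 5050 (median 4060) in barrows, against 2170 to 3970 (median 3250) in gilts, a difference of 0.35 ± 0.09. FBXW4, an F-box protein whose gene is known from limb development in mice, had 459 to 678 (median 593) in barrows, against 271 to 644 (median 421) in gilts, a difference of 0.48 ± 0.13. The limma adjusted p values were 0.035 for RNF7 and 0.0439 for FBXW4. Gilts with the lowest signals, such as pig 11 for RNF7 and pig 12 for FBXW4, lay well under every barrow, while the upper gilts lay among the barrows.

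USP2, a deubiquitinase whose expression follows the circadian clock, had a signal of 4220 to 10700 (median 8040) in barrows, against 2770 to 6810 (median 5260) in gilts. The difference was 0.55 ± 0.15, and barrows were higher by 0.98 with olive oil and 0.65 with coconut oil, and by 0.32 with soybean oil and 0.27 with beef tallow. USP7, the deubiquitinase that stabilises MDM2 and p53, had 1910 to 3300 (median 2620) in barrows, against 1110 to 2460 (median 2050) in gilts, a difference of 0.39 ± 0.11. The limma adjusted p values were 0.0405 for USP2 and 0.0471 for USP7. The other tested probe set of USP7 had a difference of 0.19 ± 0.12 and did not pass (adjusted p = 0.403), and the second of FBXW4 had 0.37 ± 0.14 (adjusted p = 0.137).

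**Figure D3:**
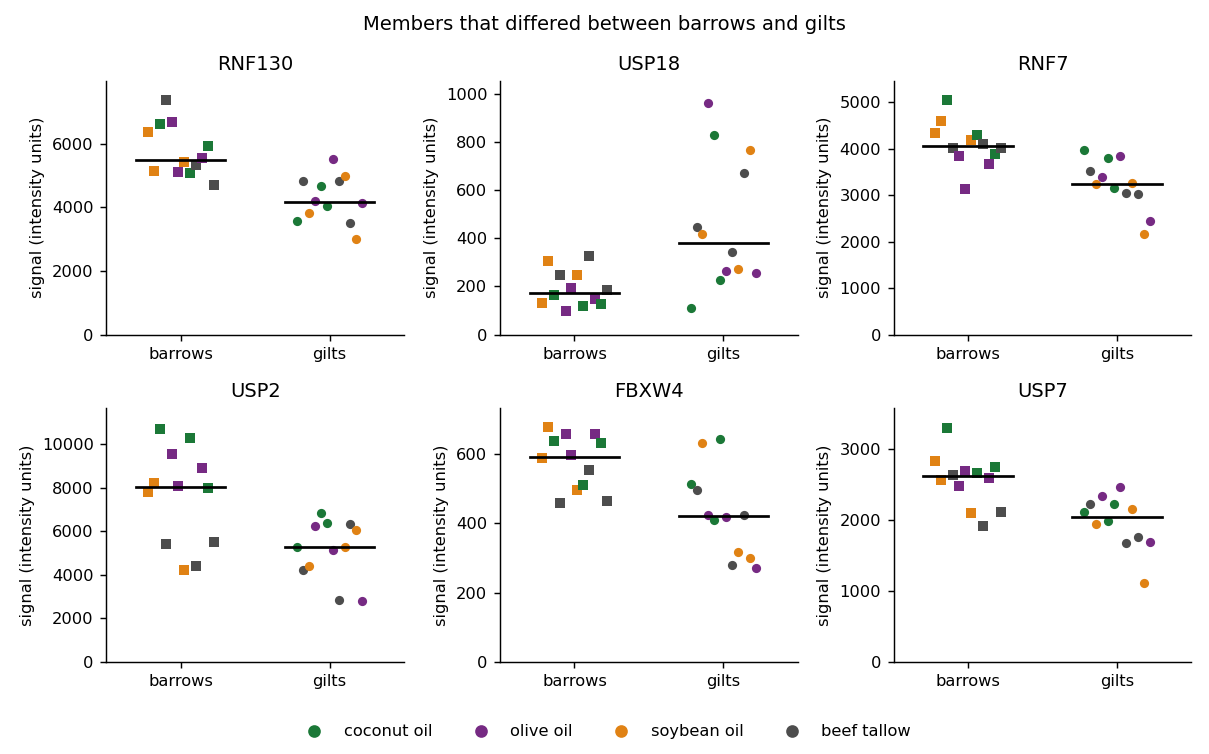
Signal (linear intensity units) of the 6 members that passed for barrow minus gilt, 1 point per pig, with barrows (squares) left of gilts (circles), colours for the 4 fats and a bar at the median of 12 pigs. Barrows are shifted up for every gene but USP18, where the barrows lie between 99.5 and 325 and the gilts spread from 112 to 961.

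The single member lower in barrows was USP18, the interferon-induced protease that removes the ubiquitin-like protein ISG15 from its targets. Its signal was 99.5 to 325 (median 174) in barrows, against 112 to 961 (median 381) in gilts. All 12 barrows lay under the gilt mean, while 4 gilts, 1 on each fat, reached 961, 830, 766 and 673. USP18 fell by 1.12 ± 0.29 on the log2 scale, 2.18-fold, with a limma adjusted p of 0.0319, and was lower in barrows on all 4 fats, by 0.93 (beef tallow) to 1.51 (olive oil).

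Other members that interferon is known to induce gave smaller values. PSMB8, a catalytic subunit that replaces PSMB5 in the immunoproteasome, had 346 to 791 (median 566) in barrows, against 470 to 979 (median 692) in gilts, a difference of -0.33 ± 0.14 that did not pass (limma adjusted p = 0.169). PSMB10, which replaces PSMB7, differed by -0.10 ± 0.14, and PSME1 and PSME2, which form the PA28 activator ring, by -0.10 ± 0.13 and -0.15 ± 0.09 (adjusted p from 0.393 to 0.738). PSMB5 itself had a difference of -0.004 ± 0.095. Among 13 tested interferon response genes 4 passed with lower signal in barrows, and the list median was -0.56. The summed signal of the 14 measured was 3340 to 6550 (median 4760) in barrows, against 3350 to 11600 (median 7590) in gilts. ISG15, the partner of USP18, was one of these 4 (-1.20 ± 0.27, adjusted p = 0.0149). The summed signal of 9 measured leukocyte markers was 4750 to 11400 (median 7830) in barrows, against 5270 to 12700 (median 8670) in gilts. That of 7 adipocyte markers was 12100 to 39700 (median 19900) in barrows, against 16200 to 52700 (median 30400) in gilts. The part of these cells in the differences between the sexes was not tested, and in a piece of tissue fewer cells of a type and less RNA per cell cannot be told apart.

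**Figure D4:**
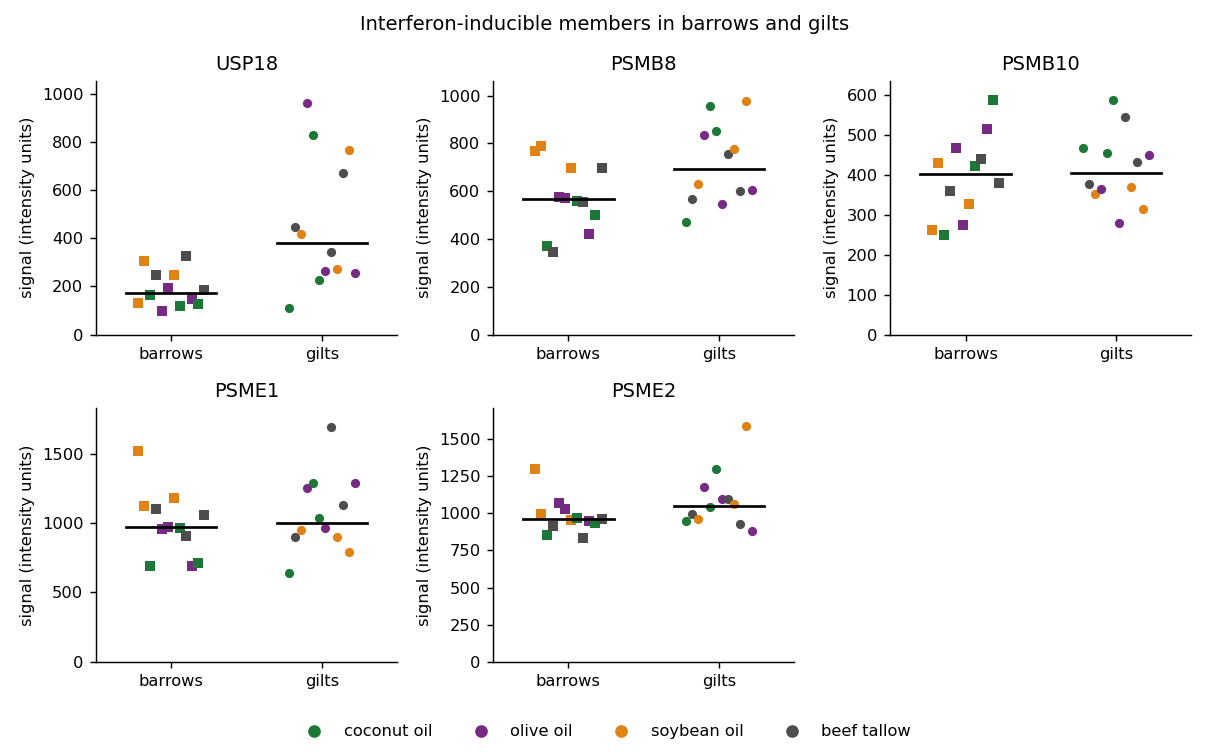
Signal (linear intensity units) of USP18 and of 4 proteasome genes that interferon is known to induce, 1 point per pig, with barrows (squares) left of gilts (circles), colours for the 4 fats and a bar at the median of 12 pigs. Of the 5 genes, USP18 passed; the barrow and gilt medians of PSMB10 are 400 and 404.

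Among the E2 enzymes 20 of 24 differences were positive (median 0.08), and none passed with the probe set used per gene. Of the 128 members 74 were positive (median 0.018), as were 46.9% of all probe sets (median -0.016). UBE2D4 differed by 0.47 ± 0.17 with the probe set used (limma adjusted p = 0.123). Its other tested probe sets passed, with 0.46 ± 0.13 and 0.62 ± 0.15 (adjusted p = 0.0434 and 0.0229). UBE2E3 differed by 0.42 ± 0.12 (limma adjusted p = 0.0544), with 3360 to 4790 in barrows against 2060 to 4590 in gilts. Another probe set of UBE2E3 differed by 0.67 ± 0.18 and passed (adjusted p = 0.0361). A further one differed by 0.41 ± 0.12 and did not (adjusted p = 0.0517). UBE2A, an E2 that works on histone H2B, differed by 0.25 ± 0.08 (adjusted p = 0.0748), and its other tested probe set by 0.07 ± 0.07 (adjusted p = 0.632). Differences of members fixed for naming that did not pass were -0.32 for PSMD4, 0.11 for UBE2B, the E2 linked to muscle protein breakdown, 0.08 for CUL4A, 0.07 for PSMA1, -0.07 for PSME4, 0.04 for CUL1, -0.03 for PSMD11 and 0.01 for UBE3A, the ligase of Angelman syndrome in humans. The sign of UBE3A turned with quantile normalization, and those of PSMB5 and PSMD11 with median centring of the arrays.

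The count between the sexes depended on single pigs. It was 1 without pig 13 or 17, 2 without pig 8, 10, 11, 12, 14, 15, 22 or 24, 3 without pig 3, 4, 6 or 23, 4 without pig 1, 5, 16, 18, 20 or 21, 7 without pig 9 and 8 without pig 2 or 7. All 6 calls were lost when no signal filter was used and when pigs 12, 11 and 16 were left out together, where 1 other member passed. RNF130 passed in all 24 runs that left out 1 pig (limma adjusted p from 0.00912 to 0.0448). USP18 did not pass without pig 3, 4, 10, 11, 13, 17, 23 or 24, with a highest adjusted p of 0.0608. RNF7 was lost without pig 6, 8, 10, 11, 12, 13, 14, 15, 17, 21 or 22 (up to 0.0698) and USP2 without pig 1, 3, 6, 8, 12, 13, 14, 15, 16, 17, 20, 22 or 24 (up to 0.079). FBXW4 passed without pig 2, 3, 6, 7, 19 or 20 and USP7 without pig 2, 7, 9, 19 or 21, and both were lost without any other pig (up to 0.0865 and 0.0901).

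With coconut oil against beef tallow, CUL4A was the 1 member of 128 that passed, while 1.17% of all probe sets passed, 0.264% with higher signal. CUL4A is the scaffold of a ligase that recognises substrates through DDB1, in DNA repair and chromatin among other settings. Its signal was 3330, 3440 and 3530 in barrows and 2300, 2610 and 3030 in gilts fed coconut oil, against 890, 1800 and 1960 in barrows and 1720, 1970 and 2320 in gilts fed beef tallow. Every barrow fed coconut oil lay above every pig fed beef tallow, and the ranges overlapped only by 1 gilt of each diet, at 2300 and 2320. CUL4A rose by 0.815 ± 0.180 (SE, 6 pigs per fat), 1.76-fold (limma adjusted p = 0.0408). The array has 2 probe sets of CUL4A, and the call rests on the 1 that was tested. Olive oil and soybean oil lay between, with 1290 to 3010 (median 2360) and 2060 to 2600 (median 2250).

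**Figure D5:**
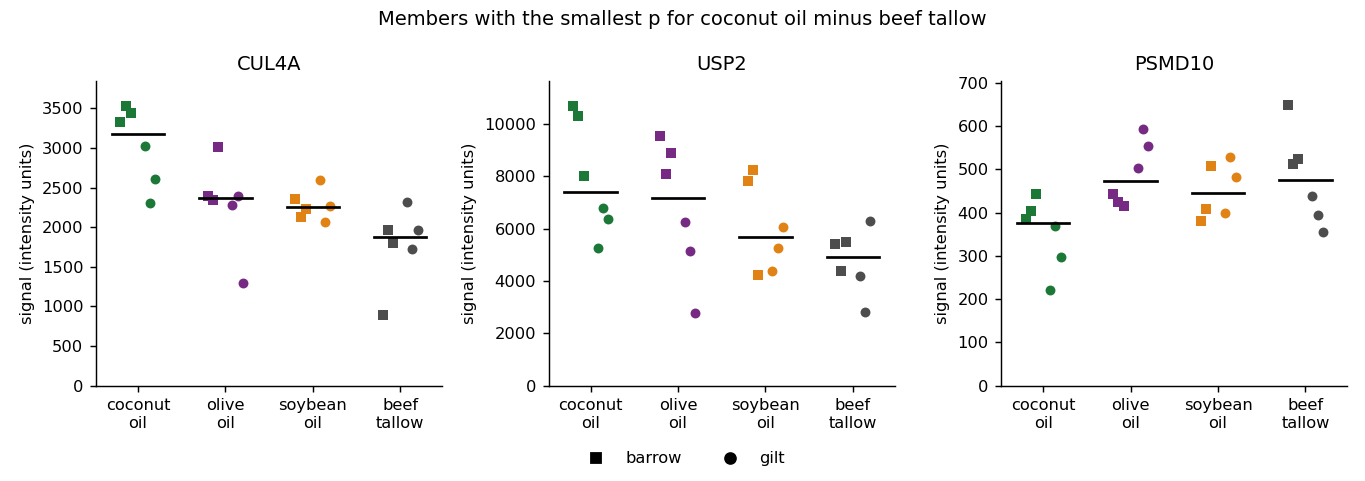
Signal (linear intensity units) of the 3 members with the smallest p for coconut oil minus beef tallow, 1 point per pig, by fat, with barrows as squares and gilts as circles and a bar at the median of 6 pigs. CUL4A is the gene that passed; pig 16 (890, beef tallow) and pig 12 (1290, olive oil) are its lowest values.

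The next genes by p did not pass. USP2 had 5270 to 10700 (median 7410) with coconut oil, against 2830 to 6310 (median 4910) with beef tallow, a difference of 0.73 ± 0.21 (limma adjusted p = 0.0761). PSMD10 had 221 to 443 (median 376) with coconut oil, against 356 to 649 (median 475) with beef tallow, a difference of -0.45 ± 0.13 (adjusted p = 0.0728). FBXW5, a substrate receptor that also joins CUL4 ligases, had 292 to 383 with coconut oil, against 184 to 281 with beef tallow. These ranges did not overlap, which held for 2 of 128 members and for 1.81% of all probe sets, but the difference of 0.38 ± 0.13 did not pass (adjusted p = 0.105). USP24, UBAP2L, PSME4, which caps the core as the activator PA200, and RNF2, the ligase of histone H2A in Polycomb complexes, differed by 0.53, 0.36, 0.49 and -0.46 (adjusted p from 0.105 to 0.127). A second probe set of UBAP2L, not used for the member count, differed by 0.62 ± 0.15 and passed (limma adjusted p = 0.0493).

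By role, coconut oil minus beef tallow gave more positive than negative differences. It was positive in 92 of 128 members, with a median of 0.115, while 44.6% of all probe sets were positive, with a median of -0.04. Each member is its gene's brightest probe set, while all probe sets include dimmer ones and ones without a symbol. These shares were not matched for signal. At an unadjusted p under 0.05 there were 18 positive and 5 negative members, against 19.9% of all probe sets (6.6% positive, 13.3% negative). The median was 0.07 for the 7 alpha subunits and 0.08 for the 7 constitutive beta subunits. It was 0.13 for the 5 ATPases of the cap and 0.17 for the 12 other cap genes, the chaperones PSMD5 and PSMD10 included. Of the 33 core and cap genes, PSMB8 and PSMB10 included, 27 were positive and none passed. Because most of these genes varied together from pig to pig, their signs are not separate evidence. In the cap PSMD1, PSMD2, PSMD3 and PSMD11, subunits of its base and lid, differed by 0.28, 0.24, 0.39 and 0.34 (adjusted p from 0.213 to 0.246). Medians were 0.13 for 24 E2 enzymes, 0.14 for 16 F-box proteins, 0.07 for 26 RNF proteins and 0.23 for 15 USP genes. The 2 tested E1 genes, UBA2 and UBA3, which serve SUMO and NEDD8, differed by -0.03 each.

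The counts of positive differences depended on the scale. Centring each array on its median moved the median of all probe sets by 0.126, and 109 members were then positive. Relative to the median of all probe sets, 100 of 128 members were higher as deposited, and 84 after quantile normalization. Centring moves all probe sets of an array alike, so it cannot change this count. Quantile normalization left 21 of the 33 core and cap genes positive. Most markers of fibroblasts and adipocytes went the other way. Summed, 7 fibroblast and matrix markers had 21000 to 28500 (median 23400) with coconut oil and 26200 to 68300 (median 39000) with beef tallow. Of the 7, 5 passed with lower signal, while LUM (-0.64) and COL3A1 (0.11) did not pass. Summed, 7 adipocyte markers had 12100 to 23300 (median 17400) with coconut oil and 16200 to 49100 (median 30000) with beef tallow. All 7 were lower with coconut oil, from -0.13 (LEP) to -1.91 (ADIPOQ), and FABP4 alone of them passed. Leukocyte, endothelial and erythrocyte sums overlapped, with medians of 6800, 5900 and 947 with coconut oil against 7510, 7280 and 1040 with beef tallow. None of their markers passed. The sum of 9 fibre markers was 308000 to 418000 (median 337000) with coconut oil, against 298000 to 387000 (median 326000) with beef tallow. Their part in the members' differences was not tested.

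Members fixed for naming had the following differences between coconut oil and beef tallow, none of which passed: 0.34 for UBE3A, -0.36 for PSME1, 0.21 for CUL1, the scaffold of SCF ligases, -0.81 for USP18, 0.17 for UBE2B, 0.22 for PSMD4, 0.09 for PSMB5 and PSMB10, 0.07 for PSME2, 0.04 for PSMA1 and 0.04 for PSMB8. PSMA1 turned to -0.01 with quantile normalization. For USP18 the medians were 146 with coconut oil and 334 with beef tallow, but pig 5, a gilt fed coconut oil, had 830. For PSMB5, 95% limits of the difference were -0.19 and 0.37.

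The call of CUL4A was lost without pig 1, 6, 8, 10, 15, 16, 20, 21 or 23, all of them on these 2 diets. Over all 24 runs without 1 pig its difference was 0.635 to 0.92, with a limma adjusted p of up to 0.128. The count was 0 without any of those pigs, and it was 3 without pig 12. Among 13 other settings it did not pass without the signal filter, with quantile normalization or in the additive model (adjusted p up to 0.0875).

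By sex, CUL4A rose with coconut oil in barrows by 1.23 ± 0.25 (SE, 3 pigs per fat, limma adjusted p = 0.0303), the 1 member of 128 called there beside 2.1% of all probe sets. It was not called in barrows without pig 15, 16, 20, 21 or 23 (difference down to 0.87, adjusted p up to 0.144), and 3 members were called without pig 24. In gilts it differed by 0.40. There 0 members and 0% of all probe sets passed, and an unadjusted p under 0.05 was reached by 3 members and 4.74% of all. The barrow minus gilt difference of this effect was 0.82 ± 0.36 and did not pass (adjusted p = 0.854), nor did any other member (5 at an unadjusted p under 0.05, against 5.52% of all probe sets). In barrows 26 members had an unadjusted p under 0.05, as did 21.2% of all probe sets. Among them RNF146, the ligase that reads poly-ADP-ribose, FBXW7, a receptor for cyclin E and MYC, and USP2 differed by 0.62, 0.97 and 0.92 (adjusted p from 0.0873 to 0.0963). RNF135, USP24, CUL1 and FBXO31, a receptor for cyclin D1, differed by -0.71, 0.75, 0.44 and 0.89 (adjusted p from 0.0995 to 0.112). In gilts PSMD10, RNF2, RNF44 and FBXW5 had the smallest p, with -0.45, -0.54, 0.34 and 0.35 (adjusted p = 0.977), before RNF40, UBE2E2, USP2 and USP21 with 0.42, -0.43, 0.54 and 0.25.

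No member passed between the other fats, where 0% of all probe sets passed too. The following pairs share pigs with the comparison above and with each other, so their values are not separate evidence. At an unadjusted p under 0.05 there were 7 members for soybean oil minus coconut oil (13.1% of all probe sets), 5 for olive oil minus coconut oil (8.9%), 3 for olive oil minus beef tallow (6.47%), 7 for soybean oil minus beef tallow (3.46%) and 0 for soybean oil minus olive oil (3.2%). PSMD10 differed by 0.49 ± 0.13 for olive oil and by 0.38 ± 0.13 for soybean oil, each minus coconut oil (limma adjusted p = 0.552 and 0.277), with 415 to 593 for olive oil and 381 to 528 for soybean oil against 221 to 443 for coconut oil. UBE2A did not overlap between soybean oil (1450 to 2430) and coconut oil (2490 to 3070), with a difference of -0.33 ± 0.11; this held for 1 member and for 1.07% of all probe sets. CUL4A differed by -0.44 for olive oil minus coconut oil and by -0.41 for soybean oil minus coconut oil. FBXO31 and UBE2QL1 differed by -0.45 and -0.45 for olive oil and by -0.52 and -0.44 for soybean oil, each minus coconut oil.

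FBXL4, an F-box protein of mitochondrial turnover, had the smallest p for olive oil and for soybean oil, each minus beef tallow, with 0.78 ± 0.27 for olive oil and 0.84 ± 0.27 for soybean oil (limma adjusted p = 0.637 and 1). CUL1 differed by 0.25 and 0.29, and CUL4A by 0.37 and 0.41. For soybean oil minus beef tallow UBE2C and PSMB8 differed by 1.17 and 0.42, and PSMB8 had the smallest p for soybean oil minus olive oil (0.40 ± 0.20, adjusted p = 1). Among the next members by p, UBE2T differed by -0.37 and USP2 by 0.44 for olive oil minus beef tallow, RNFT1 by -0.29 and PSMD11 by 0.32 for soybean oil minus beef tallow, and UBE2W by -0.26 for soybean oil minus olive oil.

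Over the 4 fats together, 0 members passed the moderated F test and 6 had an unadjusted p under 0.05 (CUL4A, PSMD10, FBXL4, USP2, FBXW5 and USP24), while 0% and 11.7% of all probe sets did. For the interaction of fat and sex 0 members passed and 4 had an unadjusted p under 0.05 (PSMD10, FBXO11, USP3 and UBE2T), against 0% and 6.12% of all probe sets. PSMD10 was higher in barrows by 0.50 with coconut oil and 0.50 with beef tallow, and lower by 0.36 with olive oil and 0.12 with soybean oil.

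Genes of the pathway outside the prefixes were taken from a list of 77, of which 40 were measured and 38 tested. Between barrows and gilts 2 passed with higher and 1 with lower signal in barrows. TRIM55, a RING ligase of the sarcomere, differed by 0.55 ± 0.15 and TRAF6, a ligase of inflammatory and atrophy signalling, by 0.78 ± 0.21 (limma adjusted p = 0.0414 and 0.041); ISG15 was the one that fell. With coconut oil against beef tallow 27 of 38 were positive (median 0.10) and 0 passed. UCHL1, a deubiquitinase of neurons and other cells, had the smallest p (-2.61 ± 0.84, adjusted p = 0.097), followed by HUWE1 and HERC1, large HECT ligases, with 0.35 ± 0.14 and 0.37 ± 0.16. The atrophy ligase FBXO32 differed by 1.20 ± 0.45 between these fats without passing (limma adjusted p = 0.144). Of the other tested genes listed with it, KLF15 differed by 0.75 ± 0.20, FOXO1 by 0.75 ± 0.29 and FOXO3 by 0.13 ± 0.23. None of these passed either (adjusted p from 0.0641 to 0.792).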

How the data were processed

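Total RNA of 24 muscle samples was hybridised to 1-colour Affymetrix porcine arrays, 1 per pig, per the labels' protocols. The authors deposited 1 linear intensity per probe set and array, and the labels do not name the summarisation or scaling. After 2% was trimmed from both ends, array means were 500.1 to 500.2 and medians 139 to 174, so the arrays share a trimmed mean but are not quantile normalized. Of 24123 probe sets, 124 controls were left out; of the rest 10069 had 1 symbol in the platform annotation, 198 several and 13732 none. Of the 134 members 128 had a gene record in the RefSeq annotation of Sscrofa11.1.

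Signals became log2(signal + 1). Probe sets with a mean signal at or above the 40th percentile (94.1) entered a model of the 8 means of fat and sex (R 4.3.3, limma 3.58.1, functions lmFit and eBayes). Tests were two-sided, and p was adjusted by Benjamini-Hochberg over all 14399 probe sets, with a threshold of 0.05. Differences are log2, the first group named minus the second. SE are moderated. The code was tested on simulated data. Pigs were treated as independent, and their number limits the precision. Named are the members past the threshold (at most 12), the 8 smallest p where fewer than 8 passed, and 27 genes fixed for naming, 14 of them tested and the others not analysed here. The members and lists were chosen with earlier results of these data known. Likeness is Pearson r of log2 values after group means were removed.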

Additional observations from a re-analysis of the deposited data

Results flagged for a closer look

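Groups of 6 pigs of a fat, both sexes together, were searched for values that lay apart by Dixon's criterion (gap over range above 0.625). This gave 20 single values of 51 named members in 204 groups. Chance gives about 1 in 20 where groups are independent. Here the genes of a pig share an array, and most named members were chosen by small p. The share over all probe sets was not counted, so 20 of 204 is not read as an excess. Pig 16, a barrow fed beef tallow, was lowest for CUL4A (890, others 1720 to 2320), FBXO11 (1010), PSMB5 (3020) and UBE3A (2900, others 5270 to 7240). Pig 12, a gilt fed olive oil, was lowest for CUL4A (1290, others 2280 to 3010), RNF146 (3590), USP24 (1680) and USP7 (1690). Pig 11, a gilt fed soybean oil, was lowest for FBXO31 (701, others 1480 to 1890), UBA2 (1360) and UBE2A (1450). Pigs 12, 11 and 16 also had the arrays least correlated with the others.

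The remaining values were spread over other pigs. Among pigs fed coconut oil, PSMD4 was lowest in pig 20 (1300, others 3070 to 3440), FBXW5 was highest in pig 15 (383) and USP18 in pig 5 (830, others 112 to 227). Among pigs fed beef tallow, PSMD11 (6980) and RNF214 (373) were highest in pig 2, PSME1 was highest in pig 8 (1690) and UBAP2L lowest in pig 21 (419). Among pigs fed olive oil, UBA2 was lowest in pig 18 (2420) and UBE2C in pig 7 (18.3).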

How the results depend on the processing

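A member count was taken as close to the value reported when within 1.5 times of it, and a median when within 0.125 on the log2 scale, the SD of the members' median between pigs of a group. By this wide limit for medians, 253 of 269 counts and medians under settings other than leaving out a pig were close and 16 were not. Median centring moved the median from 0.035 to 0.126 for olive oil minus beef tallow and from -0.067 to -0.159 for soybean oil minus coconut oil, within that limit. With no signal filter the member count was 0 for coconut oil minus beef tallow, 0 for barrow minus gilt and 0 for coconut oil minus beef tallow in barrows. Coconut oil minus beef tallow gave 0 members with quantile normalization, 0 in the additive model, 7 with array weights, 2 with the second probe set of a member and 2 without pigs 12, 11 and 16. Barrow minus gilt gave 10 with array weights and 1 without those 3 pigs. In barrows, coconut oil minus beef tallow gave 5 with arrays centred on the median, 2 with the second probe set and 0 without those pigs. Centring moved the members' median to 0.241 for coconut oil minus beef tallow, 0.37 for it in barrows and 0.281 for barrows minus gilts of it. A filter on the mean log2 value was added after seeing the data. The cause of these changes was not tested.

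Some small differences, none past the threshold, changed sign. Quantile normalization gave -0.012 for PSMA1 (coconut oil minus beef tallow) and -0.027 for UBE3A (barrow minus gilt). For barrow minus gilt, centring gave 0.042 for PSMB5 and 0.017 for PSMD11, array weights 0.027 and 0.008, the second probe set 0.062 for PSMD11, and leaving out the 3 pigs 0.001 for PSMB5. The second probe set gave -0.059 for USP16 (soybean oil minus coconut oil), and leaving out the 3 pigs gave -0.104 for PSMB8 (coconut oil minus beef tallow).

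Without 1 pig, 497 of 528 counts and medians were close by the same limits. The count ran from 1 to 8 for barrow minus gilt, from 0 to 3 for coconut oil minus beef tallow and from 0 to 3 for it in barrows. For coconut oil minus beef tallow PSMB8 ran from -0.104 to 0.192, PSMB10 from -0.052 to 0.255 and PSMA1 from -0.039 to 0.086. For barrow minus gilt PSMB5 ran from -0.044 to 0.045, PSMD11 from -0.076 to 0.031 and UBE3A from -0.051 to 0.097. No paired analysis was possible because the groups share no replicate numbers. With 6 pigs per fat, 3 per fat and sex, and no detection calls used, small differences and dim probe sets are measured least firmly.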
